A study of Mus musculus with 12 samples.

Results

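The 9 complement genes C1qa, C1qb, C1qc, C3, C4b, C3ar1, C5ar1, Itgam and Serping1 were located by mouse symbol among the 54838 Ensembl genes of the count tables and followed across the 4 groups of spinal cord libraries, 3 libraries in each. Complement is a cascade of soluble proteins and membrane receptors of innate immunity. C1q, built from the products of C1qa, C1qb and C1qc, binds cell debris and immune complexes and starts the classical pathway, in which C4 and then C3 are cleaved and deposited on the target. The small fragments C3a and C5a are sensed by C3ar1 and C5ar1, bound C3 fragments are read by receptors such as the integrin that contains Itgam, and Serping1 encodes the C1 inhibitor, which stops the first step. In the brain and spinal cord C1q is made chiefly by microglia, C3 and C4 by reactive glia and myeloid cells, and complement is known for tagging synapses and myelin debris for uptake by phagocytes.

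Libraries came from mice at P60. The control genotype was Olig1+/+;Tet1fl/fl and the Tet1 mutant Olig1cre/+;Tet1fl/fl, so both carry the floxed Tet1 allele, controls carry no cre, and in mutants the cre sits in 1 of the Olig1 alleles, which is active in oligodendroglial cells from development on. In each genotype 1 group was taken 4 days post-lesion (4dpl) from cord injected with lysolecithin, a lipid that strips myelin at the injection site, and 1 group was unlesioned cord from the contralateral side. Dissociated tissue was passed over a Percoll gradient, which enriches oligodendroglial cells without sorting them, so other cell types remain in the RNA. The labels do not say which libraries share a mouse, and the p-values measure the spread between these libraries.

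Total counts were between 34805086 and 67251544 per library. The whole-gene count of Tet1, 11.7 to 18.3 CPM (counts relative to the library size after TMM scaling) in controls and 9.94 to 21.5 CPM in libraries labelled mutant, includes undeleted exons and all other cell types and so does not check the deletion. Oligodendrocyte genes summed to between 13719 and 62339 CPM, the highest in mutant 4dpl replicate 3. Genes of neutrophils, blood cells outside the oligodendroglial lineage, summed to between 18764 and 105050.2 CPM and were highest in mutant unlesioned replicate 2, mutant 4dpl replicate 2 and control unlesioned replicates 1 and 2. Erythroid genes summed to 98612 CPM in control unlesioned replicate 2. In bulk RNA of this kind, fewer cells of a type and less RNA per cell cannot be told apart.

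The C1q genes lie side by side on chromosome 4 of GRCm38 and on the minus strand, within 18675 bases in all. C1qb is at chr4:136880129-136886187, C1qc at chr4:136889804-136893065 and C1qa at chr4:136895917-136898803. C3ar1 is at chr6:122847138-122856161, C5ar1 at chr7:16246743-16259540, Itgam at chr7:128062640-128118491 on the plus strand, C4b at chr17:34728380-34743882, C3 at chr17:57203970-57228136 and Serping1 at chr2:84765387-84775444.

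RefSeq promoter windows (GRCm38.p6, from 250 bases before to 50 bases after the annotated start) were at hand for 6 of the 9 genes, all but C1qa, C4b and Serping1. They are shown for the genes that moved together with the lesion, with the core of the binding motif of PU.1, a transcription factor of the myeloid lineage (GAGGAA, or TTCCTC where it lies on the opposite strand), in capitals for C1qb, C1qc and Itgam, and the AP-1 motif (TGANTCA, the same on both strands) in capitals for C3ar1. Each line reads 5′ to 3′ on the strand of the gene.
C1qb (chr4:136886151-136886450, minus strand): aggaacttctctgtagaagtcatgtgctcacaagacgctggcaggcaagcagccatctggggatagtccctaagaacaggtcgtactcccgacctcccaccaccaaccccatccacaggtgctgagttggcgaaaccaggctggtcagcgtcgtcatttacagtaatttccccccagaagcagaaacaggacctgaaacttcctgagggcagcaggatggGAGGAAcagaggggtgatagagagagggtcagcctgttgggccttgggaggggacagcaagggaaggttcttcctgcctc
C1qc (chr4:136892865-136893164, minus strand): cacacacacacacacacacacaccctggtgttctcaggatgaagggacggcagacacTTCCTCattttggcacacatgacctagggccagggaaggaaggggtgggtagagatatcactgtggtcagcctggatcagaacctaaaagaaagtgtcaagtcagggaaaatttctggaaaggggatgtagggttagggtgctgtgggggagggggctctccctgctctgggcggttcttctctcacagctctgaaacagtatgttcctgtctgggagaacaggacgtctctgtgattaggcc
Itgam (chr7:128062390-128062689, plus strand): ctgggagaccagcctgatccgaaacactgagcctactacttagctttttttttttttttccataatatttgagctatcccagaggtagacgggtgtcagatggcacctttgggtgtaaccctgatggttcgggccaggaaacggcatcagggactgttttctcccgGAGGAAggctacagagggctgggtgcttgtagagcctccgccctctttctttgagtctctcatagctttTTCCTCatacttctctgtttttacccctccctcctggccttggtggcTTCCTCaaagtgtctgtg
C3ar1 (chr6:122856108-122856407, minus strand): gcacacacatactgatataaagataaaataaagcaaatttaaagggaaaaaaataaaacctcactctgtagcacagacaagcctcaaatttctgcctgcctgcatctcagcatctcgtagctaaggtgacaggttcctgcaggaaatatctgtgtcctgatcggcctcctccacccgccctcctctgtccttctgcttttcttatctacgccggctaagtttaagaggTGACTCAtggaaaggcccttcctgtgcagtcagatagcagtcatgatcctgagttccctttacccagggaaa
GAGGAA was found in 3 of the 6 windows, at position -30 in C1qb, at -193 on the opposite strand in C1qc, at -84 and, on the opposite strand, at -15 and 32 in Itgam, where position 0 is the annotated start and the position is that of the first letter. The match at 32 in Itgam overlaps one of the short C/EBP form. The letters GAGGAA occurred in 28.3% of all 32851 windows of the same length. TGANTCA occurred at position -22 of C3ar1 and in 7.81% of all windows. Of the other motifs searched on both strands, the one for NF-kB was in 5 of the 6 windows and in 50.8% of all windows, TTNCNNAA (a short C/EBP form) in 4 of 6 and in 40.7%, and TTGCNNCAA (C/EBP, 2.08%), that for IRF (3.44%) and TTCNNNGAA (GAS, 8.3%) in none of the 6. These matches describe letters and were not tested as binding sites.

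The first question was which complement genes differ between lesioned and unlesioned cord. Averaged over the genotypes, 6 of the 9 genes rose at 4dpl, namely C1qa, C1qb, C1qc, C4b, C3ar1 and Itgam, and none fell (edgeR's quasi-likelihood test, called at p below 0.01 with a Benjamini-Hochberg adjusted p below 0.05). Among the 31109 genes tested in this comparison, 32.8% were called, 14.2% as higher and 18.6% as lower. The median log2 fold change of the 9 genes was 1.17 and that of all genes tested was -0.28. All 9 genes had a mean above 2 CPM over the 12 libraries. Of the 13895 genes tested at 2 CPM or more, 31.3% were called higher and 2.04% lower, with a median of 0.39. With DESeq2 the split of all called genes moved from 4423 higher and 5771 lower to 4074 higher and 8191 lower, and the same 6 members were called. In 5 genes, C1qa, C1qb, C1qc, C4b and C3ar1, each of the 6 lesioned libraries was above each of the 6 unlesioned ones, which was so for 7.44% of all genes tested.

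**Figure D1:**
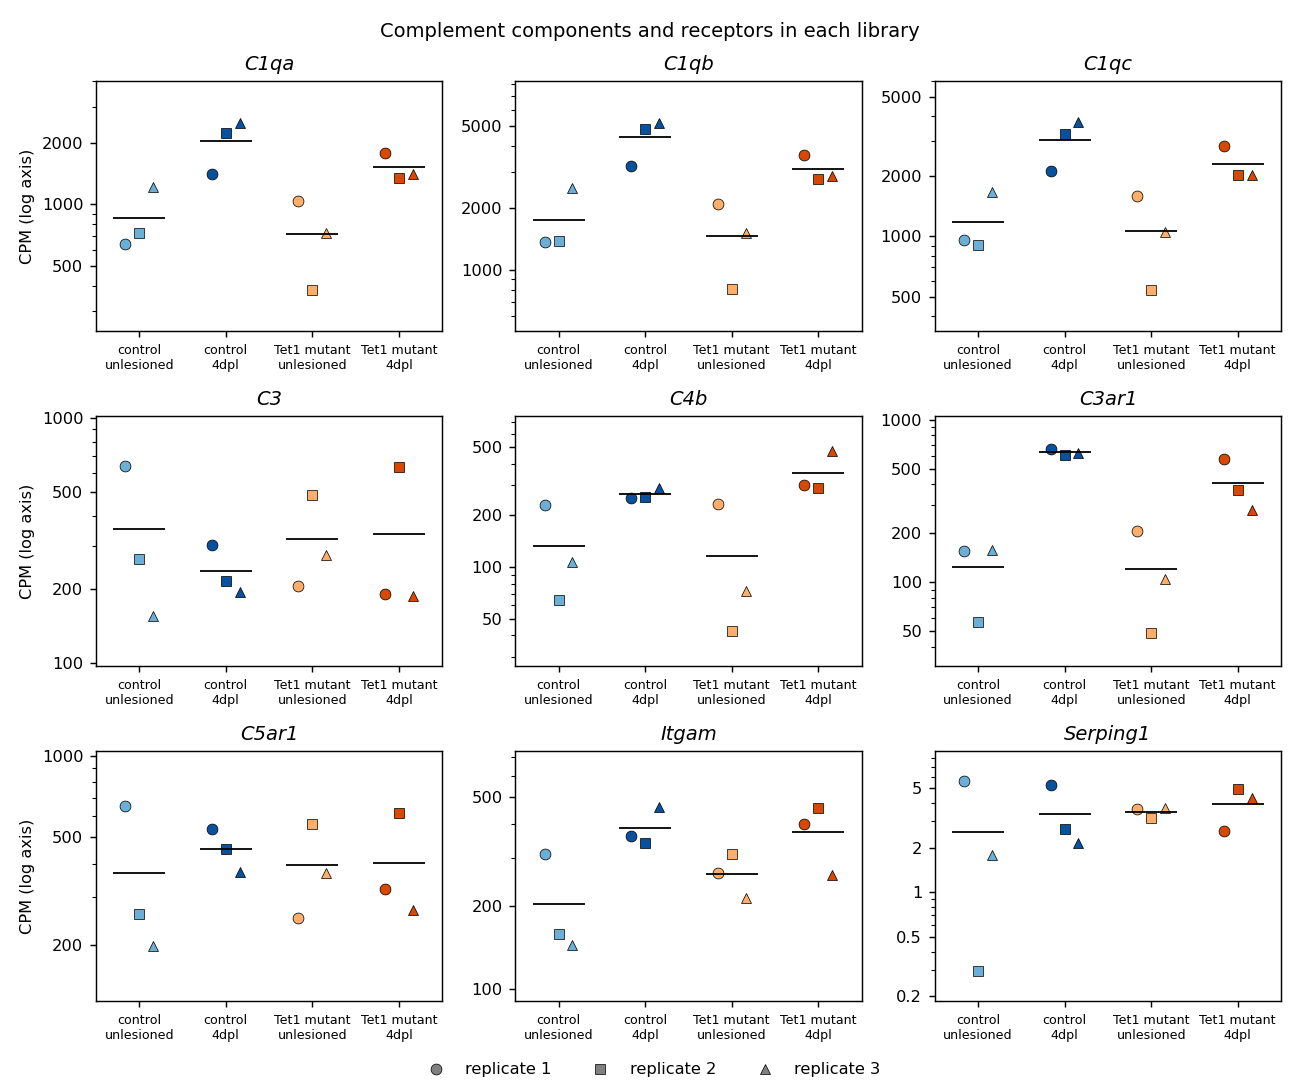
CPM of each gene (log axis) in the 12 libraries, grouped by genotype and lesion, with 1 point per library, point shape for the replicate number and a line at each group mean. The lesioned libraries lie above the unlesioned ones of both genotypes for C1qa, C1qb, C1qc, C4b and C3ar1, while the groups overlap for C3, C5ar1 and Serping1.

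C1q subunits were the most abundant of the 9 transcripts. C1qb, the B chain, was at 1369, 1379 and 2502 CPM in the control unlesioned libraries and at 3218, 4829 and 5180 CPM in the control 4dpl libraries. In the Tet1 mutant C1qb was at 2097, 807 and 1509 CPM unlesioned and at 3630, 2783 and 2880 CPM at 4dpl. The highest unlesioned library of either genotype was thus below the lowest lesioned one. Averaged over the genotypes C1qb rose by a log2 fold change of 1.20 (SE 0.28, adjusted p 0.00711).

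C1qa, the A chain, was at 636, 724 and 1221 CPM in control unlesioned, at 1408, 2243 and 2510 CPM in control 4dpl, at 1043, 383 and 727 CPM in mutant unlesioned and at 1789, 1346 and 1412 CPM in mutant 4dpl libraries. C1qc, the C chain, was at 955, 901 and 1676 CPM in control unlesioned, at 2136, 3247 and 3757 CPM in control 4dpl, at 1602, 536 and 1056 CPM in mutant unlesioned and at 2825, 2033 and 2032 CPM in mutant 4dpl libraries. For both genes, as for C1qb, mutant unlesioned replicate 2 was the lowest library and control 4dpl replicate 3 the highest. Averaged over the genotypes the log2 fold change was 1.17 (SE 0.28, adjusted p 0.00769) for C1qa and 1.24 (SE 0.29, adjusted p 0.00747) for C1qc.

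The 3 chains moved in a near-constant ratio. Per length of exon, the C1qb level was between 1.82 and 2.18 times that of C1qa and between 2.28 and 2.72 times that of C1qc over the 12 libraries, although C1qb itself spanned 6.42-fold in CPM. In RPKM (CPM per kilobase of exon), the mean over the 12 libraries was 2465 for C1qb, 1237 for C1qa and 982 for C1qc.

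Of the components that follow C1q in the cascade, C4b rose and C3 did not pass the test. C4b, a chain of the classical pathway convertase, was at 229, 64.3 and 108 CPM in the control unlesioned libraries and at 253, 256 and 291 CPM in the control 4dpl libraries. In the mutant C4b was at 235, 42.3 and 73.0 CPM unlesioned and at 299.8, 288 and 476 CPM at 4dpl. Replicate 1 of each unlesioned group was far above its fellows and close to the lesioned range, and the spread was narrow in control 4dpl and wide elsewhere. C4b rose by an averaged log2 fold change of 1.30 (SE 0.38, adjusted p 0.0183). C4b was not called with at least 10 counts asked of every library (1.06, adjusted p 0.05003), nor, with unadjusted p-values over 0.01, without control unlesioned replicate 2 (1.15, adjusted p 0.0399), control unlesioned replicate 3 (1.24, adjusted p 0.0427), mutant unlesioned replicate 3 (1.19, adjusted p 0.0478) or mutant 4dpl replicate 3 (1.18, adjusted p 0.0393). Its close paralogue C4a took between 0.109% and 2.42% of the counts of the pair, and reads that align to both copies were not counted.

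C3, the protein on which the pathways of complement converge, was at 638, 267 and 156 CPM in control unlesioned, at 303, 216 and 196 CPM in control 4dpl, at 206, 485 and 277 CPM in mutant unlesioned and at 191, 631 and 189 CPM in mutant 4dpl libraries. The 4 groups overlapped, and 1 library stood high in each of 3 groups: control unlesioned replicate 1, mutant unlesioned replicate 2 and mutant 4dpl replicate 2. The averaged log2 fold change of C3 was -0.25 (SE 0.38, 95% interval -1.07 to 0.56, adjusted p 0.603), and it was 0.14 without control unlesioned replicate 1. The neutrophil genes summed to 81667, 105050.2 and 95118 CPM in those 3 libraries. They summed to 90791 CPM in control unlesioned replicate 2, where C3 was at 267 CPM. The part of neutrophil genes in the level of C3 was not tested.

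Receptors for the cleaved fragments differed among themselves. C3ar1, the receptor of C3a, was at 156, 56.9 and 157 CPM in the control unlesioned libraries and at 660, 608 and 623 CPM in the control 4dpl libraries. In the mutant C3ar1 was at 207, 48.6 and 104 CPM unlesioned and at 577, 370.2 and 277 CPM at 4dpl. Lesioned libraries were above unlesioned ones throughout, the control 4dpl libraries lay close together, and the mutant 4dpl libraries were spread below them. The averaged log2 fold change of C3ar1, 2.06 (SE 0.35, adjusted p 0.00283), was the largest of the 9 genes, and it stayed between 1.80 and 2.44 and called under all 21 alternative settings.

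C5ar1, the receptor of C5a, was at 654, 259.8 and 199 CPM in control unlesioned, at 538, 452 and 373 CPM in control 4dpl, at 253, 562 and 369 CPM in mutant unlesioned and at 323, 615 and 270.2 CPM in mutant 4dpl libraries. The groups overlapped, and the same 3 libraries as for C3 were the highest of the 12. The averaged log2 fold change of C5ar1 was 0.16 (SE 0.31, 95% interval -0.51 to 0.84, adjusted p 0.695).

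Itgam, the alpha chain of complement receptor 3 (CD11b), was at 309, 158 and 144 CPM in the control unlesioned libraries and at 360.0, 341 and 462 CPM in the control 4dpl libraries, with no overlap. In the mutant it was at 264, 311 and 214 CPM unlesioned and at 398, 458 and 260.5 CPM at 4dpl, and the groups overlapped. Averaged over the genotypes Itgam rose by 0.71 on the log2 scale (SE 0.23, adjusted p 0.0249). The call was lost with RLE size factors (0.62, adjusted p 0.0392 with an unadjusted p over 0.01), with at least 10 counts asked of every library (0.44, adjusted p 0.143), and without any 1 of control unlesioned replicate 2 (0.65, adjusted p 0.0534), control unlesioned replicate 3 (0.63, adjusted p 0.0594), control 4dpl replicate 3 (0.64, adjusted p 0.0483), mutant unlesioned replicate 1 (0.74, adjusted p 0.0327), mutant unlesioned replicate 3 (0.66, adjusted p 0.0636), mutant 4dpl replicate 1 (0.71, adjusted p 0.0413) or mutant 4dpl replicate 2 (0.65, adjusted p 0.0499). Itgb2, the beta chain that pairs with Itgam, was between 340 and 1260 CPM with an averaged log2 fold change of 0.45 (SE 0.30, adjusted p 0.234). Voom called Itgb2 in control and in the average, beside 31.1% and 46.4% of all genes. Without control unlesioned replicate 1, edgeR called Itgb2 in control, beside 21.8% of all genes.

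Serping1, the inhibitor, was the least abundant of the 9, with 14 to 303 counts per library. It was at 5.60, 0.297 and 1.78 CPM in control unlesioned, at 5.30, 2.69 and 2.14 CPM in control 4dpl, at 3.63, 3.15 and 3.67 CPM in mutant unlesioned and at 2.57, 4.99 and 4.30 CPM in mutant 4dpl libraries. All 4 groups overlapped, and the mutant unlesioned libraries lay close together. The averaged log2 fold change was 0.29 (SE 0.48, 95% interval -0.74 to 1.32, adjusted p 0.638). It was between 0.045 and 0.96 with 1 library left out, and between 0.040 and 1.12 under the other settings. Voom called Serping1 in control (2.08, adjusted p 0.0232), beside 31.1% of all genes.

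Per length, the levels in control 4dpl fell in the order C1qb (4053 ± 962 RPKM, SD, n = 3), C1qa (1975 ± 553), C1qc (1578 ± 429), C5ar1 (177 ± 32.0), C3ar1 (146 ± 6.17), Itgam (77.2 ± 12.98), C4b (46.9 ± 3.67), C3 (46.3 ± 11.0) and Serping1 (1.45 ± 0.725). C5ar1 and C3ar1, and C4b and C3, were neighbours that did not differ beyond their spread between libraries. The spreads of C1qa and C1qc overlapped too, but within each of the 12 libraries C1qa was 1.18 to 1.49 times C1qc per length.

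Within the control genotype, 3 of the 9 genes rose at 4dpl, C1qb, C1qc and C3ar1, and none fell, beside 10.1% of all genes called (5.12% higher and 5.01% lower). The log2 fold change was 1.33 (SE 0.40, adjusted p 0.0481) for C1qb, 1.37 (SE 0.41, adjusted p 0.0498) for C1qc and 2.35 (SE 0.50, adjusted p 0.0264) for C3ar1. C1qa had 1.26 (SE 0.39, adjusted p 0.0542), Itgam 0.93 (SE 0.32, adjusted p 0.0724) and C4b 0.998 (SE 0.54, adjusted p 0.202). The adjusted p-values of C1qb and C1qc are close to the threshold, and their calls depend on single libraries. Replicate blocks, for which no source gives the pairs, changed the calls as well. Blocks by label number added C1qa (adjusted p 0.0248) and Itgam (0.0439). Blocks by the study's own numbers lost C1qb (adjusted p 0.112) and C1qc (0.108). With 1 library left out at a time, 8 of the 12 fits called between 1 and 4 of the 9 genes and 4 called none. None was called without control unlesioned replicate 2, control unlesioned replicate 3, control 4dpl replicate 1 or control 4dpl replicate 2. C3ar1 was the only one called without control 4dpl replicate 3, mutant unlesioned replicate 3 or mutant 4dpl replicate 1, 2 or 3, and C3ar1 with Itgam without control unlesioned replicate 1. The calls over all genes fell as well, to 1 without control unlesioned replicate 2, 114 without control unlesioned replicate 3, 4 without control 4dpl replicate 1 and 2 without control 4dpl replicate 2, whereas they rose to 7401 (21.8%) without control unlesioned replicate 1. Without mutant unlesioned replicate 1 or replicate 2, 4 genes were called, C1qa besides the 3, beside 8.66% and 8.48% of all genes. The fits in which C3ar1 was the only one called had between 2.70% and 10.2% of all genes called. In 6 of the 9 genes the 3 lesioned control libraries were all above the 3 unlesioned ones, as in 16.5% of all genes tested.

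Within the Tet1 mutant none of the 9 genes was called, beside 0.135% of all genes. All 9 log2 fold changes were above 0, though with RLE size factors C3 and C5ar1 were at -0.088 and -0.12, 5 of the 9 genes had an unadjusted p below 0.05, and DESeq2 called 3, C1qb, C4b and C3ar1. Over all genes tested, 10503 had an unadjusted p below 0.05 and DESeq2 called 5295. The log2 fold change was 1.77 (SE 0.49, adjusted p 0.0581) for C3ar1, 1.60 (SE 0.55, adjusted p 0.0803) for C4b, and 1.08 (SE 0.39, adjusted p 0.0888) for C1qa. Without mutant unlesioned replicate 1, which had the highest C1q and C4b levels of its group, 5 genes were called, C1qa, C1qb, C1qc, C4b and C3ar1, beside 3430 of all genes (10.2%). Without control unlesioned replicate 1, C4b and C3ar1 were called, beside 4498 of all genes (13.3%). In 5 of the 9 genes the lesioned mutant libraries were all above the unlesioned ones, beside 18.8% of all genes tested.

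**Figure D2:**
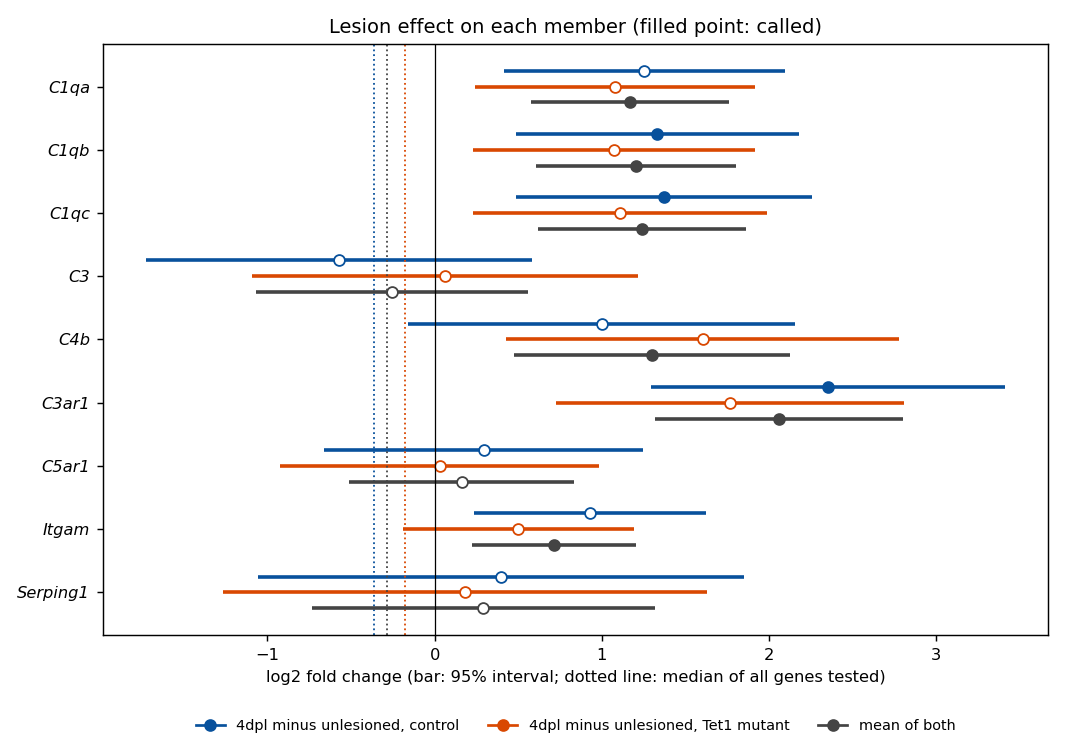
Log2 fold change of each gene between 4dpl and unlesioned libraries (horizontal axis), in control, in the Tet1 mutant and averaged, with 95% intervals; filled points were called and dotted lines mark the median of all genes tested. C3ar1 has the largest estimate in all 3 comparisons, the intervals of control and mutant overlap for all 9 genes, and those of C3, C5ar1 and Serping1 include 0 in all 3.

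Markers of other cell types moved with the lesion. All 8 homeostatic microglia genes (Tmem119, P2ry12, P2ry13, Cx3cr1, Sall1, Siglech, Gpr34 and Olfml3) had an unadjusted p below 0.05 in the averaged comparison and 6 of them were called higher. Their summed level was between 1297 and 2717 CPM in control unlesioned, 3528 and 6374 CPM in control 4dpl, 1282 and 4404 CPM in mutant unlesioned, and 3657 and 6042 CPM in mutant 4dpl libraries. Of 8 genes shared by myeloid cells 4 were called higher, of 8 of infiltrating and border macrophages 3, and of 6 neutrophil genes none, beside 14.2% of all genes called higher. Of 6 oligodendrocyte genes 2 were called higher, of 4 oligodendrocyte progenitor genes 2, and of 4 genes of fibroblasts and mural cells 1 was called higher and 1 lower. Among the 6 astrocyte genes 1 was called higher, with the summed level between 98.1 and 171 CPM unlesioned and between 183 and 341 CPM at 4dpl. In control all 6 neutrophil genes had log2 fold changes below 0, 5 of them with an unadjusted p below 0.05. All 4 erythroid genes were also below 0 there with such a p, beside 34% of all genes with such a p. None of either list was called in control, and none had such a p in the mutant. No marker of these lists was at 0 in any whole group. The part of these cell types in the rise of the 6 complement genes was not tested.

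Relative to those microglia genes in the same library, where library size cancels, the C1q genes overlapped between the 6 lesioned and the 6 unlesioned libraries. C1qb was at 71.2%, 106% and 92.1% of the summed microglia level in control unlesioned, at 91.2%, 93.4% and 81.3% in control 4dpl, at 47.6%, 63.0% and 59.5% in mutant unlesioned and at 60.1%, 76.1% and 64.0% in mutant 4dpl libraries. In CPM the same 12 libraries were separate. C1qc in the mutant was the exception within a genotype, at 36.4% to 41.8% unlesioned and 45.2% to 55.6% at 4dpl. C3ar1 exceeded a list of 8 genes shared by myeloid cells (among them Csf1r, Aif1, Ptprc, Tyrobp, Fcer1g, Spi1 and Laptm5) over the 12 libraries. Relative to their summed level C3ar1 was between 0.857% and 2.40% in the 6 unlesioned libraries and between 2.59% and 5.73% in the 6 lesioned ones. The same separation was seen for 0.113% of all genes tested. Relative to the single genes of that list it held for 2 of the 8, Aif1 and Laptm5. Relative to the summed myeloid list the C1q genes overlapped over the 12 libraries and in control. Within the mutant C1qa, C1qb and C1qc were each separate and higher at 4dpl. C1qa was there at 6.75% to 10.9% unlesioned and at 11.5% to 13.2% at 4dpl. Against the microglia sum C3ar1 was separate within each genotype, at 4.38% to 8.12% unlesioned and 9.77% to 18.7% at 4dpl in control and at 3.79% to 4.71% and 6.15% to 10.1% in the mutant. Over the 12 libraries together its ranges overlapped, and separate ranges of this kind were found for 0.0289% of all genes. C3 relative to the summed neutrophil genes was between 0.294% and 0.793% unlesioned and between 0.650% and 1.02% at 4dpl, with overlap. C5ar1 relative to the genes of infiltrating and border macrophages was between 1.90% and 3.71% unlesioned and between 2.08% and 2.58% at 4dpl, a narrow range inside the unlesioned one. Within the mutant this ratio was separate and lower at 4dpl, at 2.89% to 3.71% unlesioned and 2.35% to 2.58% at 4dpl, while in control it overlapped. C3 relative to the same genes was separate and lower in control, at 1.60% to 3.37% unlesioned and 0.994% to 1.24% at 4dpl, and overlapped in the mutant.

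**Figure D3:**
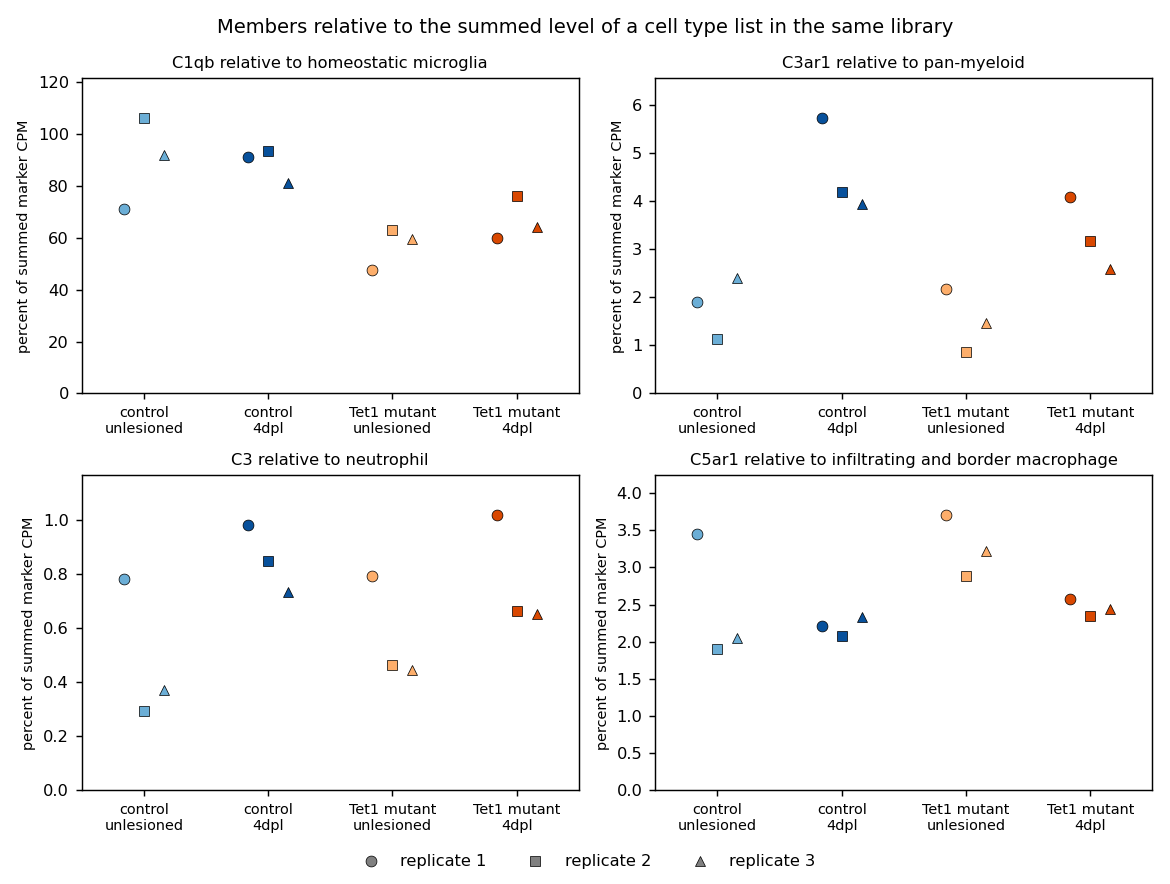
Level of 4 genes as a percentage of the summed CPM of a cell type list in the same library (vertical axis from 0), with 1 point per library. C3ar1 relative to the myeloid list is higher in every 4dpl library than in every unlesioned one, and C1qb relative to the microglia list is lower in the mutant than in the control libraries of the same condition.

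The same ratios separated the genotypes for the C1q genes. C1qb relative to the summed microglia level was lower in the 3 mutant than in the 3 control libraries, both unlesioned (47.6% to 63.0% against 71.2% to 106%) and at 4dpl (60.1% to 76.1% against 81.3% to 93.4%). C1qa gave 23.7% to 29.8% in mutant against 33.1% to 55.9% in control unlesioned libraries, and 29.6% to 36.8% against 39.4% to 43.4% at 4dpl. C1qc gave 36.4% to 41.8% against 49.6% to 69.5%, and 45.2% to 55.6% against 58.9% to 62.8%. Ranges that were separate and lower in the mutant in both conditions were found for 0.167% of all genes tested. For each C1q gene this held relative to 6 of the 8 microglia genes taken singly, and relative to 1 of the 8 genes of the myeloid list. Relative to Aif1 of the myeloid list, each C1q gene was instead separate and higher in the mutant in unlesioned cord. C1qa was there at 760% to 841% in mutant against 608% to 754% in control libraries. At 4dpl C1qb was lower in the mutant relative to Aif1, and C1qa and C1qc overlapped. The microglia genes themselves leaned higher in mutant unlesioned cord, with a median log2 difference of 0.43, all 8 above 0 and 2 with an unadjusted p below 0.05, and none was called. At 4dpl, 2 ratios went the other way: relative to the genes of infiltrating and border macrophages, C3 was at 1.52% to 2.41% in mutant against 0.994% to 1.24% in control libraries and C5ar1 at 2.35% to 2.58% against 2.08% to 2.33%. The C1q ratio was singled out after its values were seen, among 90 ratios of 9 genes to 5 lists in 2 conditions, of which 9 separated the genotypes, and 3 libraries per group give no p below 0.1 by exact permutation.

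The second question was whether the genotypes differ in complement expression itself. None of the 9 genes was called between genotypes in unlesioned cord, at 4dpl or in the genotype by lesion interaction, and edgeR called 0% of all genes in each of these comparisons. No member had an unadjusted p below 0.05 in any of the 3, and DESeq2 called none of them either. Over all genes, 1624, 2153 and 1184 had an unadjusted p below 0.05 in the 3 comparisons, and DESeq2 called 45, 227 and 0. The widest estimate at 4dpl was that of C3ar1, at -0.63 (SE 0.47, 95% interval -1.64 to 0.39, adjusted p 0.889). It was also the 1 member whose mutant libraries were all below the control libraries at 4dpl, as were 5.44% of all genes tested. For C1qb the estimate at 4dpl was -0.51 (SE 0.39, 95% interval -1.34 to 0.33), for C1qa -0.44 (SE 0.39, 95% interval -1.27 to 0.39) and for C3 0.50 (SE 0.54, 95% interval -0.65 to 1.66). In unlesioned cord the estimates lay between -0.26 for C1qa and 0.44 for Serping1. The interaction estimates, mutant change minus control change, lay between -0.59 for C3ar1 (SE 0.67, 95% interval -2.02 to 0.84) and 0.63 for C3 (SE 0.76, 95% interval -0.998 to 2.27). Except for Itgam at 4dpl, each of these intervals reached a 2-fold difference in at least 1 direction.

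**Figure D4:**
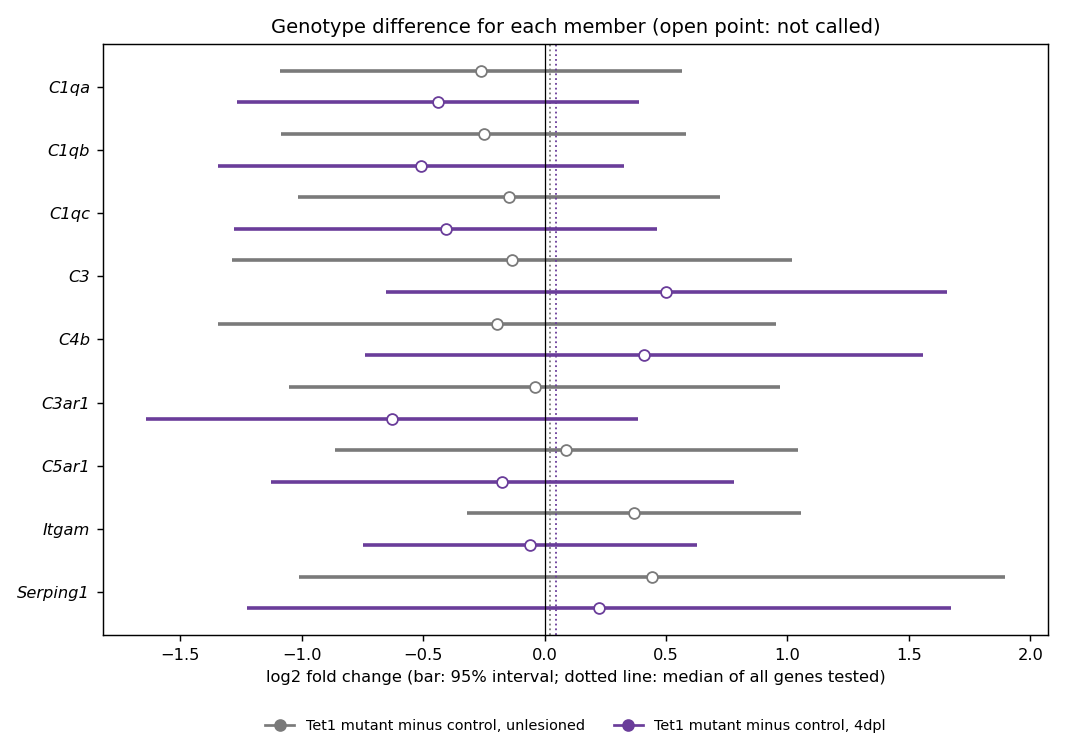
Log2 fold change of each gene between Tet1 mutant and control libraries (horizontal axis), unlesioned and at 4dpl, with 95% intervals; open points were not called and dotted lines mark the median of all genes tested. All 18 intervals include 0.

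Across the rest of the pathway, 47 further complement genes were followed, of which 43 passed the filter on low counts. Averaged over the genotypes 7 rose and 7 fell, which is 32.6% of the 43 and close to the 32.8% of all genes called (14.2% higher and 18.6% lower). Among those that rose were Masp1 (a protease of the lectin pathway), Colec12 (a membrane collectin and scavenger receptor), Cr1l (Crry, the rodent membrane inhibitor of C3 deposition), Itgax (the alpha chain of complement receptor 4), Cd93 (a C1q-domain-binding glycoprotein of myeloid and endothelial cells) and C1qbp (a mitochondrial protein named for its binding of C1q). Colec12 had the largest rise of the wider list, from between 2.53 and 6.58 CPM unlesioned to between 13.2 and 40.8 CPM at 4dpl (log2 fold change 2.50, SE 0.29, adjusted p 0.00190). The inhibitor Cr1l rose by 0.48 (SE 0.15, adjusted p 0.0241).

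Cd93 was between 6.45 and 25.6 CPM unlesioned and 16.9 and 96.0 CPM at 4dpl (1.64, SE 0.28, adjusted p 0.00285). Itgax was between 6.48 and 74.6 CPM and had a log2 fold change of 1.24 (SE 0.30, adjusted p 0.00872), and Masp1 had 1.16 (SE 0.32, adjusted p 0.0145) and C1qbp 0.77 (SE 0.13, adjusted p 0.00305).

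The 7 that fell were C1s2, C6, C9, Cfi, C4bp, Cd55b and Cr2, and all of them were scarce, with means over the 12 libraries between 0.193 CPM for Cd55b and 2.04 CPM for Cr2. C6 and C9, parts of the membrane attack complex, had log2 fold changes of -2.51 (SE 0.43, adjusted p 0.00285) and -2.10 (SE 0.56, adjusted p 0.0120). Cfi, the protease that inactivates C3b, had -2.48 (SE 0.50, adjusted p 0.00467), C4bp, a soluble inhibitor, -3.16 (SE 0.85, adjusted p 0.0124), and C1s2, a protease of the C1 complex, -2.11 (SE 0.59, adjusted p 0.0144). Cd55b, a membrane inhibitor, had no count in the 3 control 4dpl libraries and was at least 4.87-fold lower there than in control unlesioned cord, against a floor of 3 counts per library. Scarce genes of any kind were mostly called lower. Of the 17214 genes tested with a mean below 2 CPM, 71 were called higher and 5488 lower in the averaged comparison, with a median log2 fold change of -1.41, while of the 13895 genes at 2 CPM or more, 4352 were called higher and 283 lower, with a median of 0.39.

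Of the direct partners of the 9 genes, C1ra and C1s1, the proteases of the C1 complex, were at 1.10 to 4.19 and 0 to 0.770 CPM, and C5ar2, the second C5a receptor, at 9.83 to 30.2 CPM, and edgeR called none of the 3 in any comparison with all 12 libraries. Voom called C1ra and C5ar2 in control, where it called 31.1% of all genes, and in the average, where it called 46.4%. So did edgeR without control unlesioned replicate 1, where 21.8% of all genes were called in control and 38.0% in the average. In the control genotype 4 of the 43 tested genes rose, among them Colec12, Cd93 and C1qbp, and C6, Cfi and Cd55b fell, which is 16.3% of the 43 beside 10.1% of all genes. None was called in the mutant, between the genotypes or in the interaction, where 15, 1 (unlesioned), 4 (4dpl) and 1 of the 43 genes had an unadjusted p below 0.05, and DESeq2 called 8 of them in the mutant. Of all genes tested, 33.8%, 5.22%, 6.92% and 3.81% had such a p in these comparisons, and DESeq2 called 17.0% in the mutant.

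**Figure D5:**
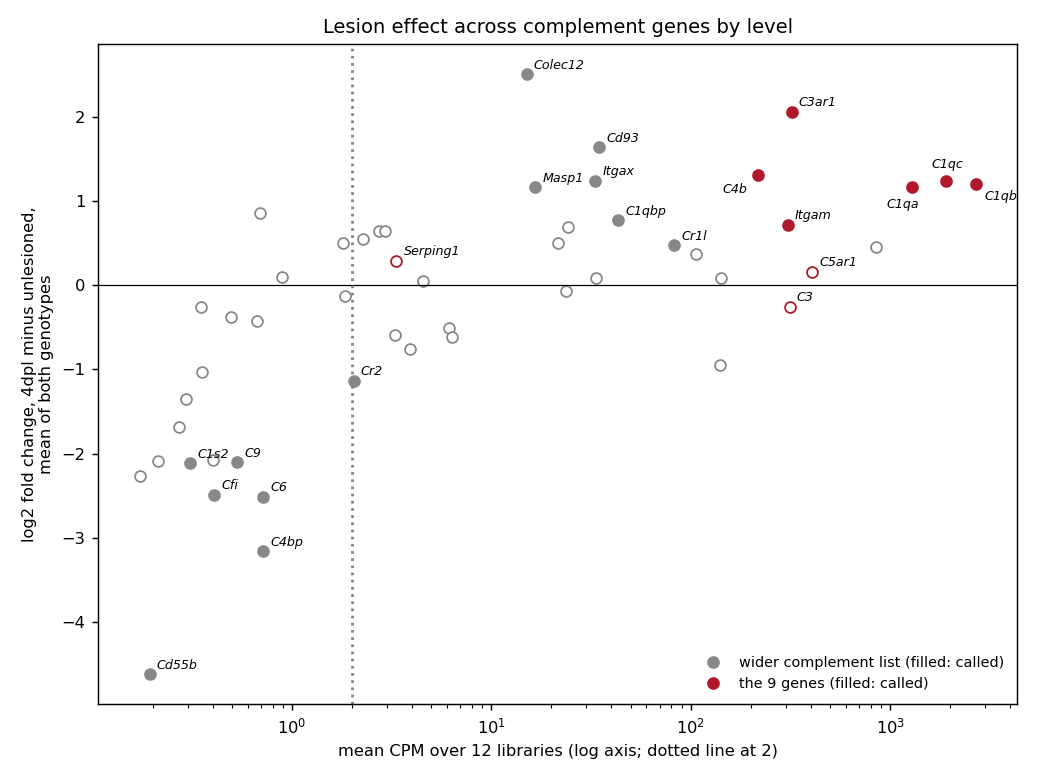
Log2 fold change between 4dpl and unlesioned libraries averaged over the genotypes (vertical axis) against the mean CPM over the 12 libraries (log axis), for the 9 genes in red and tested genes of the wider list in grey, with filled points for called genes and a dotted line at 2 CPM; the position of Cd55b, at 0 in control 4dpl, depends on the fit and is no bound. The called genes of the wider list that fell lie at the left, from 0.193 to 2.04 CPM, and the called genes that rose lie above 10 CPM.

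Genes outside the pathway that followed each member most closely were sought by Pearson's r of log2 CPM over the 12 libraries, among 13605 genes whose mean on that scale reached 1. These r values describe libraries that share lesion, cell composition and depth. Closest to C1qa were Trem2 (r = 0.99), a microglial receptor for lipids, Blnk (0.98) and Tmem37 (0.98). Blnk (0.99) also led for C1qb and C1qc. Closest to C3ar1 were Tbxas1 (0.995), the thromboxane synthase, Ctsb (0.99), a lysosomal protease, and Nrp1 (0.99). Closest to C3 were Hjurp (0.99), Trem1 (0.99), a receptor that amplifies inflammation in neutrophils and monocytes, and Selenon (0.99). For C5ar1 they were Rgs19 (0.98), Stxbp2 (0.97) and Mapkapk3 (0.97), for Itgam Fli1 (0.98), Abcd2 (0.97) and Clip1 (0.96), for C4b Usp48 (0.98), Tex2 (0.97) and Atp1b3 (0.97), and for the scarce Serping1 AW554918 (0.92), Zfp26 (0.91) and Btla (0.91). No gene was among the 3 closest both to a C1q gene and to C3 or C5ar1.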

How the data were processed

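The authors aligned reads to the mouse genome (mm10; the paper names BWA, the submitters' processing notes list STAR and DESeq2 1.2.5), counted uniquely aligned reads on exons of Ensembl genes with featureCounts, and deposited raw counts for 12 libraries, which are not normalized. Strandedness is not given in the sources used here. The statistics were run with edgeR 4.0.16 under R 4.3.3. Its filterByExpr kept 31109 of 54838 genes, library sizes were scaled by TMM, and a model with 4 group means was fitted to all 12 libraries with the quasi-likelihood test. CPM uses the scaled sizes, and RPKM divides by the exon length in the tables. Cd55b at 0 was set against 3 counts per library, which covers counting error only. Total counts were 34805086 to 67251544 per library, so counting error is small for all members but Serping1.

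The members and all gene lists were chosen with earlier results of these data known. Named genes of the wider list are those called in any contrast (at most 12, by p in the averaged contrast) and 7 direct partners, and Cr2 was named after its value was seen. The split at 2 CPM and the ratios to marker lists were chosen after seeing the data. Each fit was tested on simulated counts. Alternatives were DESeq2 1.42.0, limma 3.58.1 with voom and sample weights, other scalings and filters, replicate blocks, the newer quasi-likelihood option and leaving out each library. Promoter sequences are RefSeq's for GRCm38.p6. Proteins, sorted-cell and hydroxymethylation data were not used here. Results for some genes of the wider and marker lists are not reported here.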

Additional observations from a re-analysis of the deposited data

How the results depend on the processing

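The averaged calls of C1qa, C1qb, C1qc and C3ar1 held under all 21 alternative settings, and between 4 and 6 members were called without 1 library. Of 738 values of single members, 626 kept their direction and side of the threshold, 46 lost and 31 gained a call and 35 changed sign. Of the 9 members, the control lesion comparison gave 5 calls with DESeq2, 1 with edgeR on the groups compared, 1 with at least 10 counts asked of every library, 7 with voom, and 0 to 4 without 1 library. The mutant gave 3 with DESeq2, 1 without the filter, 6 with voom, 1 with the newer quasi-likelihood option, and 0 to 5 without 1 library. For the wider list, the control gave 12, 4, 3 and 19 in the first 4 of these settings and 0 to 16 without 1 library, the mutant gave 8 with DESeq2, 1 on the groups compared, 3 without the filter, 11 with voom, 7 with the newer option and 0 to 6 without 1 library, and the average gave 8 with at least 10 counts and 24 with voom. Over all genes, DESeq2 called 6996 in control and 5295 in the mutant, voom 9663 and 6800, and the newer option 5950 and 4428 (14.2% in the mutant), while the fit without the filter called 947 in the mutant (1.86% of 51033). Genotype and interaction calls among the members were 0 throughout. The cause of these shifts was not tested.

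Changes of sign were seen in C3, C5ar1, Serping1 and Itgam. C3 in the mutant lesion comparison was at -0.088 with DESeq2 and with RLE, -0.19 on the groups compared, -0.28 with at least 10 counts and -0.74 to 0.49 without 1 library. C5ar1 there was at -0.12 with DESeq2 and RLE, -0.21 on the groups compared, -0.31 with at least 10 counts and -0.38 to 0.39 without 1 library, and Serping1 at -0.057 and -0.13 on the groups compared and with at least 10 counts. Averaged, C5ar1 was at -0.12 with at least 10 counts and -0.035 to 0.53 without 1 library, and C3 at 0.027 with voom and -0.64 to 0.14 without 1 library. In control, leaving out 1 library gave -0.92 to 0.20 for C3 and -0.11 to 1.72 for Serping1. Between genotypes at 4dpl, Itgam was at 0.025 with voom, and leaving out 1 library gave -0.24 to 0.14 for Itgam, -0.12 to 0.71 for Serping1, -0.33 to 0.79 for C3 and -0.61 to 0.044 for C5ar1. RLE moved the median of all genes from -0.18 to -0.32 in the mutant and from -0.36 to -0.42 in control.

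No source says that libraries with the same number share a mouse. Deviations from the group means of same-numbered libraries correlated at 0.32, 0.21 and 0.31 in control and 0.20, 0.32 and 0.07 in the mutant over 13616 genes, and at -0.24 to 0.20 by the study's own numbers, so no pairing was assumed. Every control library correlated best with its own number, a hint from the data only. With a replicate block by label number 5 members were called in control, C1qa (adjusted p 0.0248) and Itgam (0.0439) besides the 3, and 1 gene of the wider list in the mutant, where C3 was at -0.094. With a replicate block by the study's number 1 member and 2 genes of the wider list were called in control, Itgam lost its averaged call (adjusted p 0.0684), C3 was at 0.32 in control and -0.74 in the mutant, and C5ar1 and Serping1 at -0.35 and -0.023 in the mutant. Genotype contrasts could not be fitted with a block nested in genotype. Depth limits only Serping1 and the scarce genes of the wider list.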
